A study of Homo sapiens with 6 samples.

Results

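The BCL2 family was followed here in 10 genes, taken by symbol from the 20325 protein-coding genes of the deposited table. They were BCL2, BCL2L1, BCL2L2, MCL1, BCL2L11, BMF, PMAIP1, BID, BAK1 and BIK. RNA came from SNU-668, a human gastric cancer cell line that the protocols call resistant to erastin, an inhibitor of cystine import used to trigger ferroptosis. In 3 libraries these resistant cells carried an shRNA against ALKBH3, a demethylase of alkylated nucleic acids, and in 3 libraries they carried the control shRNA-NC. All 6 libraries thus share the erastin-resistant background, no parental cells enter a comparison, and the genotype label of the controls reads WT. The prefix RLS3 in every library name has no stated meaning, and the resistant background is taken from the protocol text alone. How many shRNAs were used, and whether the replicates were separate cultures, is not given in the sources used here. The p-values below therefore reflect variation among 6 libraries, which may be technical only. Knockdown replicates 2 and 3 were more alike in read counts than any other pair within a group. Their chi-square per degree of freedom was 3.05, against 10.2 to 11 for the other pairs, and the cause was not tested.

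BCL2 family proteins set whether the outer mitochondrial membrane stays intact. Pro-survival members (BCL2, BCL2L1, BCL2L2 and MCL1) hold pro-apoptotic relatives in a groove that binds their BH3 helix. BH3-only proteins (BCL2L11, BMF, PMAIP1, BID and BIK) occupy that groove or activate the effectors BAK1 and BAX, whose pores release cytochrome c to the apoptosome and its caspases. Several of these genes are controlled at the level of transcription by stress pathways, which is where mRNA counts bear on them. Others are controlled mainly by splicing, cleavage or protein turnover, which gene counts do not show.

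In the knockdown libraries BCL2L1, PMAIP1 and BMF were higher than in the controls, by 1.32-fold, 1.3-fold and 1.24-fold. The genes called were thus a pro-survival gene and a pair of BH3-only genes, and none of the other members passed the test. In bulk RNA, a difference in all cells and a larger one in some of them cannot be told apart. Levels are CPM, read counts relative to a library size scaled by edgeR's TMM method, and errors are SDs of 3 libraries. The quasi-likelihood test of edgeR was run on 12305 genes, and an adjusted p under 0.05 counted as a call. The promoters of the 3 called genes are shown first. Whether these genes vary together was not tested. Each is given as the 250 bases before the gene's start in RefSeq (GRCh38.p14), 5′ to 3′ on the gene's strand. Capitals mark matches on either strand to 4 short motifs. GGGCGG is the GC box, and the box that binds factor NF-Y reads CCAAT. The core promoter element with letters TATAAA positions the start of transcription, and a shortened cAMP response element, the type of site that ATF-family factors bind, reads TGACGT.
BCL2L1, chr20:31723964-31724213, minus strand: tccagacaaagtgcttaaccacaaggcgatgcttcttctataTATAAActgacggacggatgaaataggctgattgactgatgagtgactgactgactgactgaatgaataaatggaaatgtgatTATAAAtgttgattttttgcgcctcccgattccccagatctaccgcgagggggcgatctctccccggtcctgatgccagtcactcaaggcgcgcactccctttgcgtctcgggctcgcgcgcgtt
PMAIP1, chr18:59899746-59899995, plus strand: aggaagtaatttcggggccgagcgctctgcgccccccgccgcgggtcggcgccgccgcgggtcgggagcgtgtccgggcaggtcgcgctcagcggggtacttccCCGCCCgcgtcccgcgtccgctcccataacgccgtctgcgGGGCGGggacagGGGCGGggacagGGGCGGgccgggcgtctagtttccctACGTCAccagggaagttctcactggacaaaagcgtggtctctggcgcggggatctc
BMF, chr15:40108880-40109129, minus strand: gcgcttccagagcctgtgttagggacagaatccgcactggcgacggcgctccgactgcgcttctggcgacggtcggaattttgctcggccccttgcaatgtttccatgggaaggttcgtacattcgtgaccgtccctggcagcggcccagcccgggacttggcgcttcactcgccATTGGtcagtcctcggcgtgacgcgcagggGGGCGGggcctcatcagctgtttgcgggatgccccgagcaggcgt

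The 3 windows differed in base composition and in the motifs they held. BCL2L1 had a GC content of 50% and 2 TATAAA matches, a motif held by 10.7% of the 35116 RefSeq promoter windows of the same length. These matches lie 208 to 203 and 125 to 120 bases before the start, and whether either acts as a core promoter element was not tested. PMAIP1 was at 72.8% GC, with 4 GGGCGG matches and 1 TGACGT match that lies 56 to 51 bases before the start. GGGCGG was found in 42.6% of all windows and TGACGT, chosen after the sequence was seen, in 7.1%. BMF, at 65.2% GC, held 1 GGGCGG and 1 CCAAT match, and CCAAT was present in 32% of windows. Also searched were TGATGNAA (the core of the C/EBP-ATF response element), TGACGTCA (the full cAMP response element, which contains TGACGT) and GTAAACA (the forkhead element). These letters occur in 3.14%, 1.65% and 2.98% of all windows and were not in these 3. Of the 10 members, 7 had a window in the RefSeq table, and among those GTAAACA was present in BCL2L11 alone. The table has 2 entries each for BCL2L1 and BMF, and the one at the start of the RefSeq gene is shown. MCL1, BCL2L2 and BIK are named only.

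ALKBH3, the target of the shRNA, was at 5.28, 5.98 and 4.52 CPM in knockdown libraries, against 23.0, 22.9 and 22.6 CPM in the controls (adjusted p = 1.01e-10, quasi-likelihood test of edgeR). Totals ran from 14890452 to 17880183 counts per knockdown library and from 14244932 to 15470321 per control library. In all, 487 of the 12305 tested rose and 507 fell in the knockdown; scaling by library totals alone gave 610 against 417. Leaving out knockdown replicate 2 gave 312 against 288, and leaving out knockdown replicate 3 gave 285 lower. Of 9 gastric and epithelial markers, CDH1, GKN1 and MUC5AC had 0 reads in every library, and TFF1 had 2 and EPCAM 54 reads in total. Of the 4 markers tested, 2 were higher and 0 lower, where 8.08% of all tested genes were called. KRT19 and MUC1 were not called, with log2 fold changes of 0.16 and -0.11 (adjusted p = 0.841 and 0.844, quasi-likelihood test of edgeR). The keratin KRT18 was higher in the knockdown by 0.38 on the log2 scale (adjusted p = 0.0024, quasi-likelihood test of edgeR). KRT8 was called too, at 0.41 (adjusted p = 0.0419 by the same test), but kept its call with only 1 of the 6 libraries left out and was at 0.0658 in DESeq2. Of 9 markers of other cell types, VIM (749 CPM per kb in the knockdown and 745 CPM per kb in the controls) and the fibroblast collagen COL1A1 were well expressed. COL1A1 was at 95.8, 77.2 and 67.2 CPM in knockdown libraries, against 101, 119 and 93.6 CPM in the controls, overlapping, with a log2 fold change of -0.38 (adjusted p = 0.0512, quasi-likelihood test of edgeR). Its adjusted p was 2.41e-04 to 0.0596 under other settings, of which 6 of 7 called it, and 1 of the 6 fits with a library left out did. For the remaining 7 (PTPRC, CD3E, CD14, VWF, DCN, LUM and HBB), CD3E and HBB were at 0, and the summed level was 2.92 to 5.92 CPM in knockdown libraries and 2.64 to 3.94 CPM in controls. The leukocyte gene PTPRC had 32, 65 and 0 reads in knockdown replicates 1 to 3 and 16, 18 and 2 in control replicates 1 to 3. The part of these markers in the members' values was not tested.

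Of the 9 members that passed the filter on low counts, 3 were higher and 0 lower, where 8.08% of all tested genes were called, with 3.96% higher and 4.12% lower in the knockdown. An unadjusted p under 0.05 was reached by 3 members, all higher and 0 lower, and by 22.2% of all tested genes. DESeq2 called 2 members higher (3.54% of all genes) and limma-voom 3 (3.72%), each with 0 lower. The tenth member, BIK, was too low to test. The groups did not overlap for 5 members, BCL2L1, MCL1, BMF and PMAIP1 above the controls and BID below them, while 26.6% of all tested genes did not overlap. The median log2 fold change of the 9 members was 0.1, against 0.01 for all tested genes. The members and the other gene lists were chosen with earlier results of these data known. Their shares beside those of all genes are therefore a description and not an independent comparison.

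**Figure D1:**
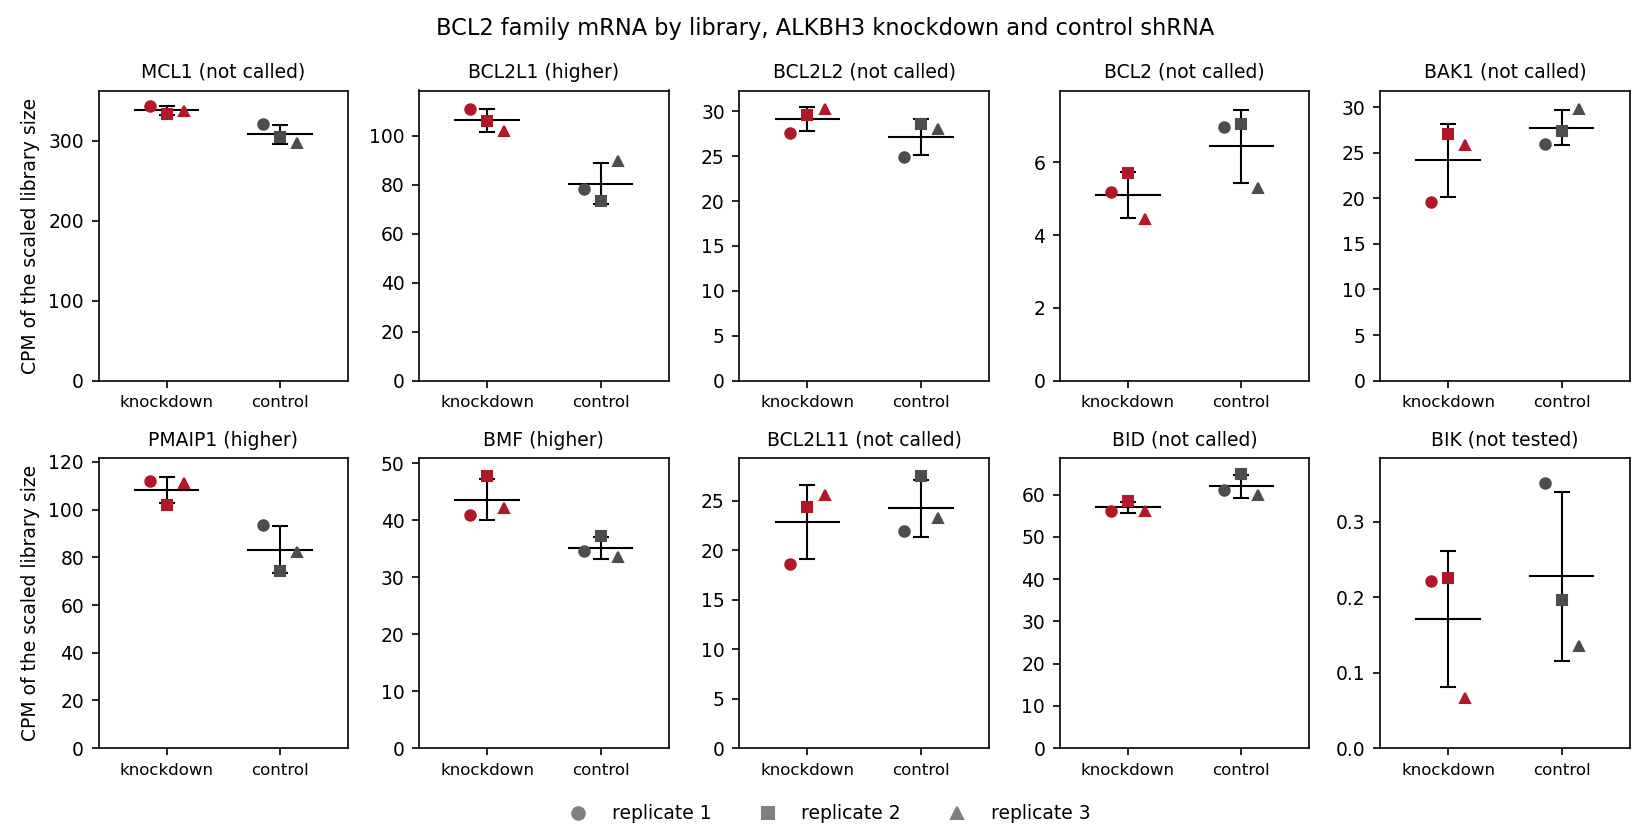
CPM of each of the 10 members by library, with knockdown in red on the left and control in grey on the right of each panel. Marker shapes give the replicate number, lines the mean and bars the SD of 3 libraries. Every knockdown library lies above every control library for BCL2L1, PMAIP1, BMF and MCL1, and the last of these was not called.

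Among the pro-survival genes, BCL2L1 was the member that was called. It encodes BCL-XL and, by an alternative splice site, the short pro-apoptotic BCL-XS, which a count per gene cannot separate. BCL2L1 (ENSG00000171552, chr20:30252255-30311792 on the minus strand of hg19) had 2003, 1883 and 1537 reads in the knockdown libraries and 1114, 1122 and 1326 reads in the controls. As CPM these were 111, 106 and 102 in the knockdown and 78.4, 73.4 and 89.7 in the controls. The groups did not overlap, and control replicate 3 came closest to the knockdown. The mean was 107 ± 4.65 CPM in the knockdown and 80.5 ± 8.38 CPM in the controls (SD, n = 3 each), a log2 fold change of 0.40 (SE 0.0842) with a 95% interval from 0.23 to 0.58, not adjusted for the number of genes (adjusted p = 0.00264, quasi-likelihood test of edgeR). With any 1 library left out, the adjusted p stayed between 5.23e-04 and 0.0201 in the same test.

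MCL1 encodes a short-lived survival protein whose abundance depends on continued synthesis, and its mRNA had the highest level per exon length of the 10 members in every library. MCL1 (ENSG00000143384, chr1:150547032-150552066, minus strand) stood at 343, 333 and 337 CPM in knockdown libraries, against 321, 305 and 297 CPM in the controls. Each knockdown library was above each control library, but by little. The log2 fold change was 0.13, with a 95% interval from -0.02 to 0.29, and MCL1 was not called (adjusted p = 0.311, quasi-likelihood test of edgeR). As a fold, that interval runs from 0.984 to 1.22. The estimate for BCL2L1, 1.32-fold, lies above it, but the 95% interval of BCL2L1, from 1.17 to 1.49, overlaps it. Whether the changes of these genes differ was not tested. The deposited row for MCL1 carries the description of an antisense RNA of a neighbouring gene, while its identifier, symbol and position are those of MCL1.

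BCL2 itself and BCL2L2, which encodes BCL-W, did not pass. BCL2 was low, at 5.17, 5.69 and 4.45 CPM in the knockdown libraries and 6.97, 7.06 and 5.28 CPM in the controls. The groups overlapped, because control replicate 3 lay below knockdown replicate 2. Its log2 fold change was -0.33 with a 95% interval from -0.70 to 0.05 (adjusted p = 0.295, quasi-likelihood test of edgeR), which is the widest interval of the 9 tested members and rests on 67 to 108 reads per library. BCL2L2 had 27.6, 29.6 and 30.2 CPM in the knockdown libraries and 24.9, 28.6 and 28 CPM in the controls. These also overlapped, with a log2 fold change of 0.10 (adjusted p = 0.621, quasi-likelihood test of edgeR). The gene BCL2L2 shares 4925 bases with the read-through gene BCL2L2-PABPN1 on the same strand, and lies opposite PPP1R3E and HOMEZ. How the authors' counting divided reads among these is not given in the sources used here.

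The effector BAK1, which forms pores in the outer mitochondrial membrane, was not called. Its level was 19.6, 27.1 and 25.8 CPM in knockdown libraries, against 26.0, 27.4 and 29.8 CPM in the controls. Knockdown replicate 1 was low, and the other 2 lay within the range of the controls or just below it. The log2 fold change was -0.20 with a 95% interval from -0.45 to 0.04 (adjusted p = 0.331, quasi-likelihood test of edgeR), and -0.07 without knockdown replicate 1. The gene has 2 processed pseudogenes in GENCODE release 29, BAK1P1 and BAK1P2, whose reads can be confused with its own.

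PMAIP1 encodes NOXA, a short BH3-only protein that binds mainly MCL1 and promotes its degradation. PMAIP1 (ENSG00000141682, chr18:57567180-57571538, plus strand) had 112, 102 and 111 CPM in knockdown libraries, against 93.5, 74.1 and 82.2 CPM in the controls. No control library reached the lowest knockdown library, and control replicate 1 was nearest to it. The mean was 108 ± 5.88 CPM in the knockdown and 83.3 ± 9.73 CPM in the controls (SD, n = 3 each), a log2 fold change of 0.38 (SE 0.0866) with a 95% interval from 0.20 to 0.56 (adjusted p = 0.00608, quasi-likelihood test of edgeR). It stayed called with each library left out in turn, with adjusted p from 0.00113 to 0.0439.

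BMF, a BH3-only protein held at the cytoskeleton by a dynein light chain and released on loss of attachment, was the weakest of the 3 calls. BMF (ENSG00000104081, chr15:40380091-40401093, minus strand) was at 41.0, 47.8 and 42.1 CPM in knockdown libraries, against 34.6, 37.3 and 33.5 CPM in the controls. Knockdown replicate 2 was the highest library, and the groups did not overlap. The mean was 43.7 ± 3.63 CPM in the knockdown and 35.1 ± 1.93 CPM in the controls (SD, n = 3 each), a log2 fold change of 0.31 (SE 0.0954) with a 95% interval from 0.12 to 0.51 (adjusted p = 0.0419, quasi-likelihood test of edgeR). The call was lost without knockdown replicate 2 (0.258), knockdown replicate 3 (0.0828), control replicate 1 (0.0919) or control replicate 3 (0.11), and in DESeq2 (adjusted p = 0.051).

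BCL2L11 and BID, the BH3-only genes whose products (BIM and, once cleaved, tBID) activate BAX and BAK1 directly, were not called. BCL2L11 was at 18.6, 24.4 and 25.6 CPM in the knockdown libraries and 22.0, 27.5 and 23.3 CPM in the controls, so the groups overlapped and knockdown replicate 1 was the lowest. Its log2 fold change of -0.09 (adjusted p = 0.733, quasi-likelihood test of edgeR) turned to 0.04 without knockdown replicate 1 and to 0.01 without control replicate 2. BID was at 56.2, 58.5 and 56.1 CPM in the knockdown libraries and 61.1, 64.9 and 59.8 CPM in the controls. All 3 knockdown libraries were below the controls, by a log2 fold change of -0.12 with a 95% interval from -0.29 to 0.05 (adjusted p = 0.42, quasi-likelihood test of edgeR). BIK, a BH3-only protein of the endoplasmic reticulum, had 4, 4 and 1 reads in the knockdown libraries and 5, 3 and 2 reads in the controls, and a difference was not detectable at this depth.

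**Figure D2:**
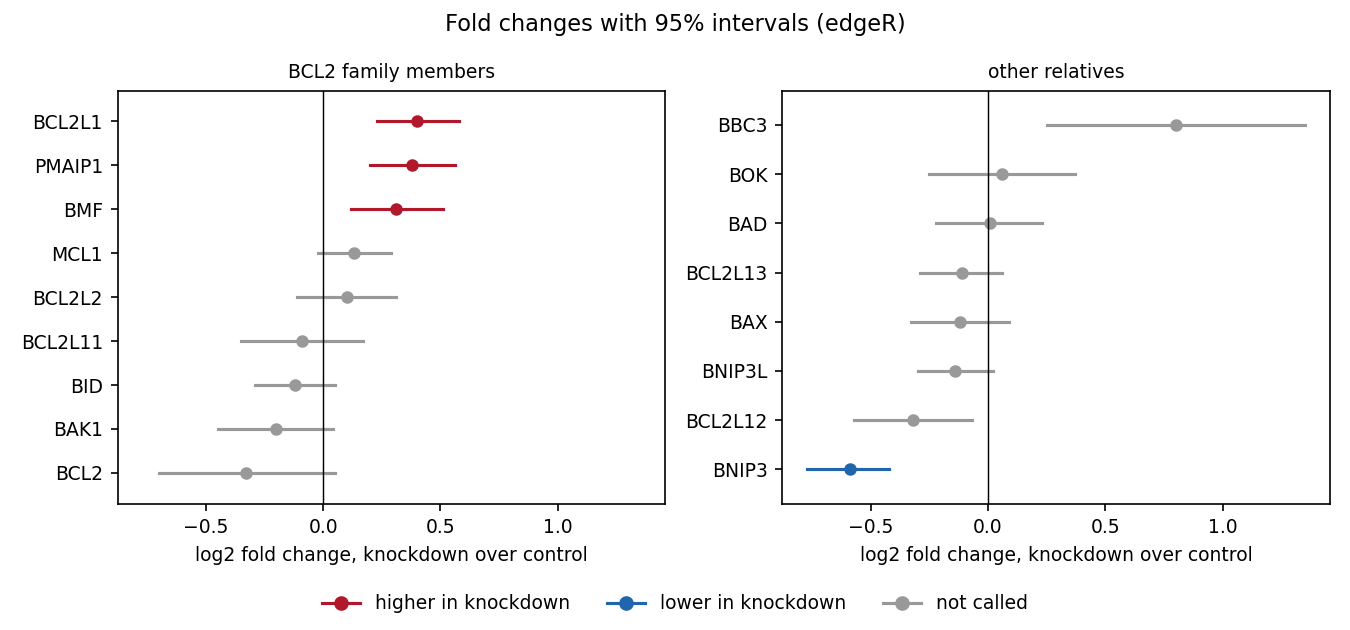
Log2 fold change, knockdown over control, of the 9 tested members (left) and of 8 tested relatives (right), with the 95% interval of each gene, not adjusted for the number of genes. Red marks genes called higher, blue lower, and grey genes that were not called. BCL2L1, PMAIP1 and BMF lie between 0.31 and 0.40, and BNIP3 at -0.59.

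Levels can be compared between genes only per length. Here CPM was divided by the length of all annotated exons of the gene merged (GENCODE release 29, matched by identifier), which understates genes with long exons that these cells may not use, BCL2 among them. By that scale the order in the knockdown was MCL1 (77.2 CPM per kb), PMAIP1 (48.5), BCL2L1 (32.2), BID (12.8), BAK1 (10.9), BMF (8.02), BCL2L2 (6.96), BCL2L11 (3.43), BCL2 (0.434) and BIK (0.18). In the controls it was MCL1 (70.3 CPM per kb), PMAIP1 (37.3), BCL2L1 (24.3), BID (13.9), BAK1 (12.5), BCL2L2 (6.48), BMF (6.45), BCL2L11 (3.64), BCL2 (0.547) and BIK (0.239). BMF and BCL2L2 stood in opposite order in the groups, their ranges being 7.54 to 8.78 and 6.59 to 7.22 CPM per kb in the knockdown and 6.15 to 6.84 and 5.93 to 6.84 CPM per kb in the controls. Those 2 neighbours thus overlapped in the controls but not in the knockdown. The 3 most abundant members kept their order in every library, since no range of one met that of the next within a group.

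**Figure D3:**
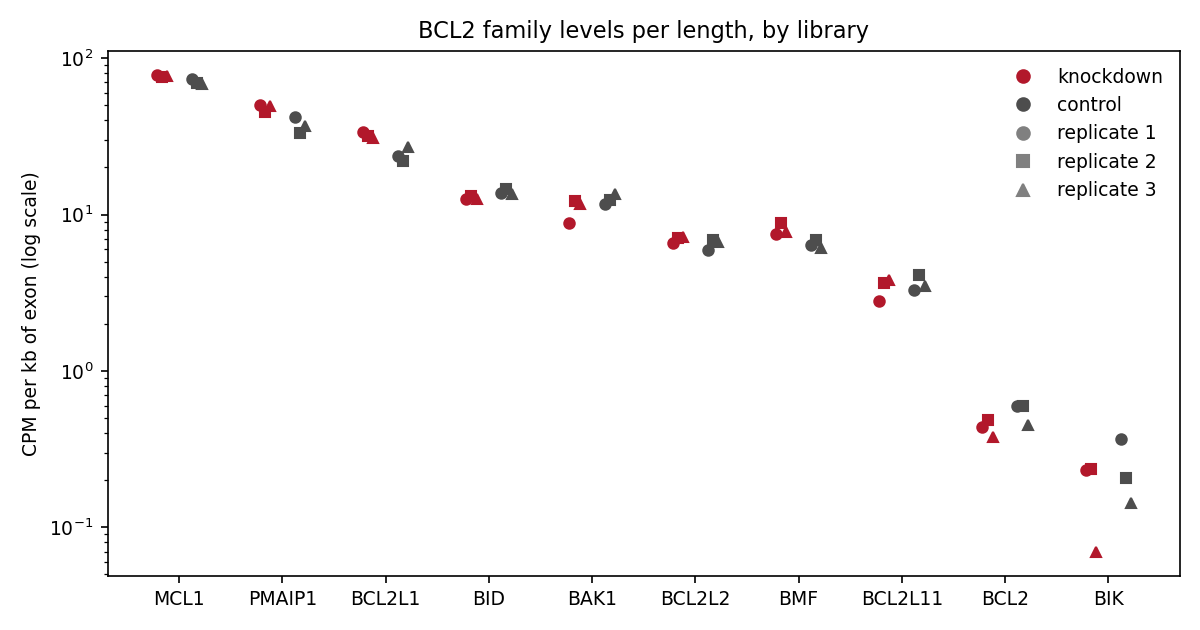
CPM per kb of merged exon for the 10 members on a log axis, with knockdown in red to the left of control in grey and marker shapes for the replicates. MCL1, PMAIP1 and BCL2L1 lie above the other 7 members in all 6 libraries, and BCL2 and BIK lie below 1 CPM per kb.

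Summed by role, the 4 pro-survival genes reached 119, 116 and 115 CPM per kb in the knockdown libraries and 104, 99.3 and 102 CPM per kb in the controls. The 5 BH3-only genes reached 73.4, 71.2 and 74.0 CPM per kb in the knockdown and 65.5, 59.0 and 60.1 CPM per kb in the controls. Both sums were higher in every knockdown library, while their shares of the family overlapped between the groups. Pro-survival genes made up 57.4% to 59.2% of the summed level of the members in the knockdown and 57.3% to 58.2% in the controls. BH3-only genes made up 35.8% to 36.8% in the knockdown and 34.2% to 36.3% in the controls, and these ranges overlapped too. BAK1, the 1 effector among the members, held 4.40% to 6.13% in the knockdown and 6.47% to 7.68% in the controls, without overlap. BAK1 itself was not called and its own levels overlapped, while the total it is divided by includes the called genes BCL2L1, PMAIP1 and BMF. The sums by role weigh mainly MCL1 and PMAIP1. Both hold genes called higher, BCL2L1 (32.2 CPM per kb in the knockdown and 24.3 in the controls) in the pro-survival sum. The BH3-only sum holds PMAIP1 (48.5 and 37.3 CPM per kb) and BMF. They are given as a description, with no test.

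Ratios between members were taken within each library, where scaling cancels. Of 8 ratios, 5 did not overlap between the groups and 3 did. Each pair without overlap holds BCL2L1 or PMAIP1, both called on their own, and BCL2L1 was known to be higher when the pairs were set. No share over all pairs of genes was computed, and of single tested genes 26.6% did not overlap. PMAIP1 over MCL1, the pair in which NOXA binds its main partner, was -1.61, -1.71 and -1.60 on the log2 scale in knockdown libraries, against -1.78, -2.04 and -1.85 in the controls, a ratio 1.19 times that of the controls. BCL2L11 over MCL1 was -4.21, -3.77 and -3.72 in the knockdown and -3.87, -3.47 and -3.67 in the controls, and these overlapped.

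Against BCL2L1, BCL2L11 and BAK1 were lower in every knockdown library than in any control, while BMF and PMAIP1 overlapped. BCL2L11 over BCL2L1 was -2.58, -2.12 and -2.00 in the knockdown and -1.84, -1.42 and -1.95 in the controls. BAK1 over BCL2L1 was -2.51, -1.97 and -1.98 in the knockdown and -1.59, -1.42 and -1.59 in the controls, 0.651 times the control ratio. Both ratios have the called gene BCL2L1 below the line and a gene that was not called above it. BMF over BCL2L1 was -1.44, -1.15 and -1.28 in the knockdown and -1.18, -0.98 and -1.42 in the controls. PMAIP1 over BCL2L1, both of them called, was 0.01, -0.06 and 0.12 in the knockdown and 0.25, 0.02 and -0.13 in the controls.

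A pair of ratios set one pro-survival gene against another. BCL2L1 over MCL1 was -1.62, -1.65 and -1.72 in the knockdown and -2.03, -2.06 and -1.72 in the controls, where knockdown replicate 3 and control replicate 3 came out alike to 2 decimals. BCL2 over BCL2L1 was -4.43, -4.22 and -4.52 in the knockdown and -3.49, -3.38 and -4.09 in the controls. Since BCL2L1 was known to be higher when these pairs were set, the ratios are a description with no test.

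**Figure D4:**
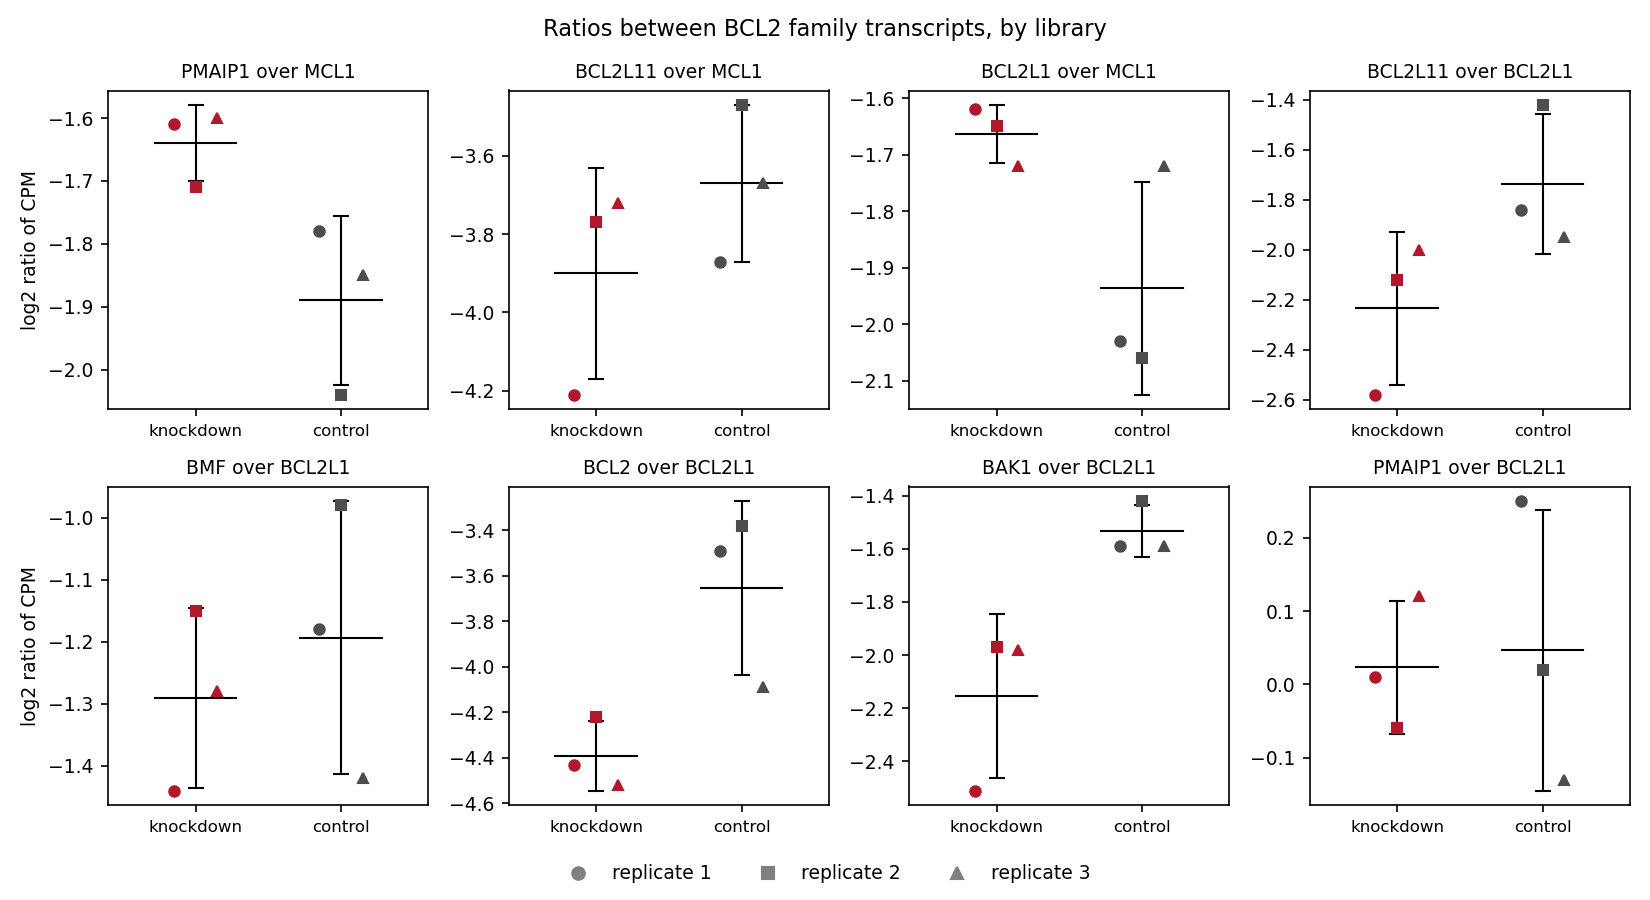
Log2 ratio of CPM for 8 pairs of members within each library, knockdown in red on the left and control in grey on the right, with the mean and SD of 3 libraries and marker shapes for the replicates. BAK1 over BCL2L1 is lower in every knockdown library, and PMAIP1 over BCL2L1 overlaps between the groups.

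The genes closest in pattern to each called member were sought among 10434 other tested genes that averaged 5 CPM or more. Likeness was the mean absolute difference in log2 CPM over the 6 libraries, each gene centred on its control mean. Nearest to BCL2L1 were CCDC106, CIRBP and FBXO25, at 0.0264, 0.0351 and 0.0369. Nearest to PMAIP1 were GPCPD1 (0.0217), PAGR1 (0.0308) and GTF2H2 (0.037), and nearest to BMF were PABPC1L (0.0188), MDGA1 (0.0345) and RGL3 (0.0346). Of these 9, CIRBP and GPCPD1 were called by edgeR (adjusted p = 0.012 and 0.0102). None of the 9 is itself in another list used here.

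Among 13 further relatives, 8 were tested, 0 rose and 1 fell, which is 12.5% called where 8.08% of all tested genes were. BNIP3, a mitochondrial protein with a BH3-like stretch that is induced by hypoxia and acts in mitophagy, was at 268, 305 and 309 CPM in knockdown libraries, against 405, 479 and 445 CPM in the controls. Every knockdown library was well below the controls, with a log2 fold change of -0.59 (adjusted p = 4.05e-05, quasi-likelihood test of edgeR). Before adjustment 1 relative was higher at a p under 0.05, and DESeq2 and limma-voom called 0 higher. That one, named after its values were seen, was BBC3, which encodes the BH3-only protein PUMA. BBC3 had 55, 52 and 56 reads in the knockdown libraries and 20, 26 and 36 reads in the controls, so the groups did not overlap. Its log2 fold change was 0.80 with a 95% interval from 0.25 to 1.35 (adjusted p = 0.0652, quasi-likelihood test of edgeR), and it passed without control replicate 3 (0.0394, against up to 0.216 without another library), with no filter on low counts (0.0497) and with the replicate number as a block (0.0431). BAX, the effector paired with BAK1, was at 35.3, 37.1 and 38.3 CPM in the knockdown and 35.1, 39.1 and 46.0 CPM in the controls, with a log2 fold change of -0.12 (adjusted p = 0.54, quasi-likelihood test of edgeR). BCL2L12, also named after its values were seen, passed as lower without knockdown replicate 1 (0.0426 against 0.106 with all libraries), making 2 lower relatives there. HRK, BCL2A1, BCL2L10, BCL2L14 and BCL2L15 were removed by the filter on low counts.

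Of 17 tested genes of the apoptosome, caspases and their inhibitors, 1 rose and 3 fell, which is 23.5% called against 8.08% of all tested genes (3.96% higher and 4.12% lower). The 4 were XIAP, BIRC3, BIRC5 and VDAC1, and 1 of them, BIRC3, stayed called with every library left out in turn. XIAP, which binds and blocks caspases, was at 73.5, 76.2 and 77.5 CPM in the knockdown libraries and 66.1, 58.1 and 59.9 CPM in the controls, a log2 fold change of 0.30 (adjusted p = 0.0222, quasi-likelihood test of edgeR). BIRC3, the NF-kB-induced ubiquitin ligase cIAP2, was at 151, 155 and 152 CPM in the knockdown and 205, 229 and 185 CPM in the controls, a log2 fold change of -0.43 (adjusted p = 0.00112, quasi-likelihood test of edgeR). BIRC5, which encodes survivin and is transcribed mainly in dividing cells, had a log2 fold change of -0.30, and VDAC1, the voltage-dependent channel of the outer membrane, one of -0.27 (adjusted p = 0.0227 and 0.0333, quasi-likelihood test of edgeR). The XIAP call was lost without knockdown replicate 2 (0.0943) or 3 (0.0965) or control replicate 2 (0.0813) or 3 (0.0526), and that of BIRC5 without knockdown replicate 2 (0.113) or 3 (0.144) or control replicate 3 (0.0908). VDAC1 lost its call without every library other than control replicate 2, with adjusted p up to 0.122, and when scaled by library totals alone (0.0553). CASP9, the initiator caspase of the apoptosome, and CASP6 had log2 fold changes of -0.01 and 0.01 and were not called.

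The death receptor route, which can cut BID through caspase 8, gave no call. The quasi-likelihood test of edgeR called 0 of 11 genes higher and 0 lower, where it called 8.08% of all tested genes (3.96% higher and 4.12% lower). DESeq2 and limma-voom called 0 as well. Before adjustment 1 was lower at a p under 0.05, TNFRSF21, with a log2 fold change of -0.28. It was named after its values were seen and passed without control replicate 3 (0.0486), with no filter on low counts (0.0423) and with the replicate number as a block (0.0471). TNFRSF10B, the TRAIL receptor that is a known target of the stress factor CHOP, had a log2 fold change of 0.11 (adjusted p = 0.417, quasi-likelihood test of edgeR), and its relative TNFRSF10A had 1 read in all.

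**Figure D5:**
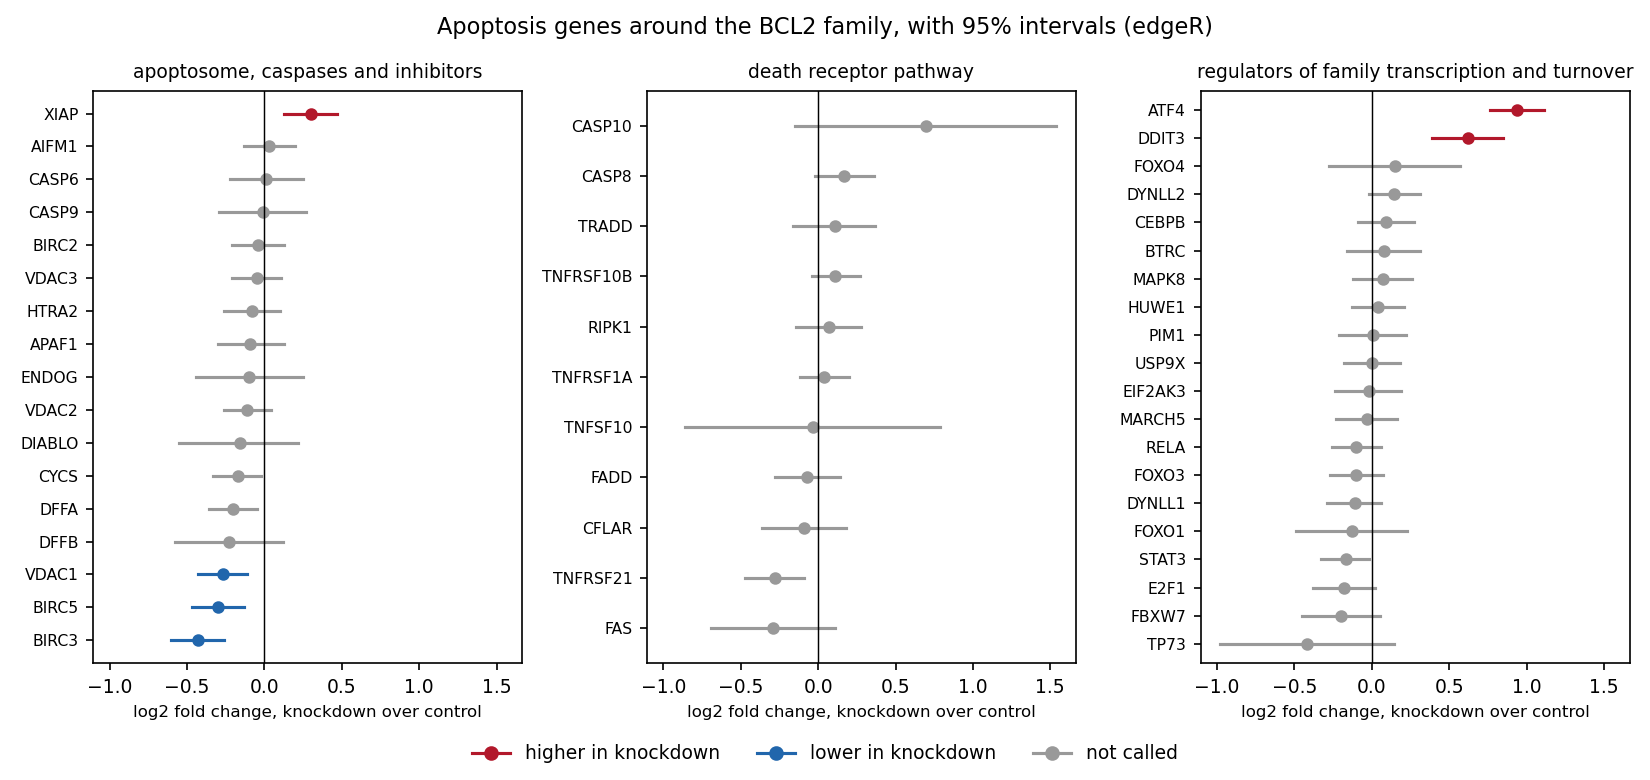
Log2 fold change, knockdown over control, with 95% intervals not adjusted for the number of genes, for the tested genes of 3 apoptosis lists. Red marks genes called higher, blue lower and grey not called. ATF4 (0.94) and DDIT3 (0.62) lie to the right, BIRC3 (-0.43), BIRC5 and VDAC1 to the left, and no death receptor gene is coloured.

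Among 20 tested regulators of the family's transcription and turnover, 2 rose and 0 fell, which is 10.0% called, near the 8.08% of all tested genes. Before adjustment 1 was lower at a p under 0.05, and DESeq2 and limma-voom called 0 lower. ATF4, the factor of the integrated stress response, was at 563, 515 and 509 CPM in the knockdown and 284, 247 and 298 CPM in the controls, a log2 fold change of 0.94 (adjusted p = 2.34e-08, quasi-likelihood test of edgeR). DDIT3, which encodes CHOP, a stress factor known to act on BH3-only genes, was at 32.3, 29.9 and 33.4 CPM in the knockdown libraries and 17.5, 23.0 and 21.7 CPM in the controls (adjusted p = 7.07e-04, quasi-likelihood test of edgeR). FOXO3, a known activator of BCL2L11, had a log2 fold change of -0.10 (adjusted p = 0.541, quasi-likelihood test of edgeR). The ubiquitin ligases and the deubiquitinase that set MCL1 stability, HUWE1, FBXW7, BTRC, MARCH5 and USP9X, had log2 fold changes from -0.20 to 0.08, and none was called. DYNLL1 and DYNLL2, the dynein light chains that hold BIM and BMF, had -0.11 and 0.14 and were not called either.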

How the data were processed

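The authors deposited raw read counts per gene for 6 libraries, per the file headers. Per the submitters' processing notes, hg19 and the tools featureCounts 2.0, STAR 2.7.9a, fastp 0.20.0 and DESeq2 were used. The sources used here give no counting settings, strand use or annotation release. A further 2 lines of the table held no values and were not analysed.

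Genes were filtered with filterByExpr in edgeR 4.0.16 (R 4.3.3), which removed 0.0556% of counts, scaled by TMM, and compared by robust glmQLFit and glmQLFTest with the group as the only term. P-values were adjusted over 12305 genes by the Benjamini-Hochberg method. Each SE was derived from the log2 fold change and its F statistic. Alternatives were DESeq2 1.42.0, limma-voom (limma 3.58.1), other scalings, filters and thresholds, the replicate number as a block, and leaving out each library. The code was tested on simulated data.

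The 10 members and the gene lists were chosen with earlier results of these data known. Named genes were all members, ALKBH3, called genes of the other lists, the 3 nearest patterns per called member, and the line's lowest tissue markers. Other genes of the lists were named after their values were seen. Promoter sequences come from RefSeq (GRCh38.p14) and gene positions from the deposited table (hg19). Some genes of these lists are not reported here.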

Additional observations from a re-analysis of the deposited data

How the results depend on the processing

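The direction of the 9 tested members held under all alternatives apart from BCL2L11 (-0.09 with all libraries), which came to 0.04 without knockdown replicate 1 and 0.01 without control replicate 2 and ranged from -0.18 to 0.04 with 1 library left out; the cause was not tested. The count of called members stayed at 2 or 3, with BCL2L1 and PMAIP1 among them under every alternative. At an adjusted p under 0.01 the calls over all genes numbered 251 higher and 207 lower, and with 1 library left out they ranged from 312 to 433 higher and from 285 to 423 lower, in fits of fewer samples.

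The deviations of same-numbered libraries from their group means correlated at 0.0579, 0.107 and -0.0556 for replicates 1, 2 and 3. Knockdown replicate 2 correlated best with control replicate 2, while knockdown replicates 1 and 3 each correlated best with a control of another number. Whether the numbers mark pairs was not tested. With the replicate number as a block there were 587 higher and 647 lower genes and the same 3 called members. In the simulation of this comparison, drawn from 12305 genes of these libraries, 200 genes were changed, while 994 were called in the data. There edgeR recovered 96% of genes changed by 1 on the log2 scale and 72% of those changed by 0.5, with 8.2% false calls. With fewer genes changed, these shares may not carry over to the data. The members' changes were smaller than 0.5, so a member without a call may still differ.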
